A study of Mus musculus with 4 samples.

Results

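A set of 10 immediate early genes was followed across the cell lineages, libraries and antibody tags of mouse mammary organoids, namely Fos, Fosb, Jun, Junb, Jund, Egr1, Ier2, Ier3, Atf3 and Dusp1. They are 10 of the 32285 annotated genes of the single-cell tables. They were listed by name, not by their measured values, although earlier results of these data were known. Organoids are small epithelial structures grown in gel from dissociated mammary glands, here of aged virgin wild-type mice and littermates with 1 truncated copy of Brca2, called Brca2mut/WT. Cultures of each genotype were left untreated (control) or were exposed to hydroxyurea (HU), which stalls DNA replication by depleting nucleotides, so that the samples were wild-type control, wild-type HU, Brca2mut/WT control and Brca2mut/WT HU, each a single droplet library. Frozen organoids were thawed, regrown and broken into single cells with TrypLE, a trypsin substitute, under repeated pipetting before capture. The paper describes single-cell data from an early and a late passage, with HU given repeatedly over serial passages. The passage held by a library is not given, so how many HU exposures its cells had is not known. The library titles and the paper give different numbers of replicates per condition. The Brca2 truncation is present in every cell of the Brca2mut/WT mice. Animals were pooled within a library without a key to the 4 antibody tags that mark its cells. The cells of a tag are therefore described below as an unlabelled pool, and no mouse, passage or replicate was assigned to it.

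Immediate early genes are switched on within minutes of a stimulus from transcription factors that are already in the cell, so that no new protein is needed. Growth factor signalling through ERK, stress kinases and the handling of tissue with proteases all induce them, and for this reason they are read both as a signalling output and as a trace of dissociation. Fos and Jun proteins pair to form AP-1, a dimer that binds DNA and whose make-up changes its targets. In the mammary epithelium, basal cells are contractile and surround the luminal cells, which either carry hormone receptors (HR+) or do not (HR-). The HR- luminal cells include the milk-producing precursors.

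The regulatory sequence just upstream of 4 members is shown, Fos and Fosb as the Fos genes, which were lower in basal than in HR- luminal cells, and Atf3 and Dusp1 as the members with the highest folds in HR+ over HR- luminal cells. The 250 bases before the RefSeq start of each gene were read on the coding strand of GRCm38.p6, the build of the deposited tables, and capitals mark matches on either strand to the cyclic AMP response element TGACGTCA, its half-site TGACG, the TATA box TATAAA and the Egr motif GCGGGGGCG. Fos (ENSMUSG00000021250) lies on the plus strand of chromosome 12, and its window is chr12:85473640-85473889. Fosb (ENSMUSG00000003545) lies on the minus strand of chromosome 7, with a window of chr7:19310046-19310295. Atf3 (ENSMUSG00000026628), on the minus strand of chromosome 1, has a window of chr1:191183334-191183583, which lies inside the longer GENCODE gene from 191170296 to 191218039. Dusp1 (ENSMUSG00000024190), on the minus strand of chromosome 17, has a window of chr17:26508473-26508722, also inside its GENCODE gene from 26505590 to 26562128.
Fos: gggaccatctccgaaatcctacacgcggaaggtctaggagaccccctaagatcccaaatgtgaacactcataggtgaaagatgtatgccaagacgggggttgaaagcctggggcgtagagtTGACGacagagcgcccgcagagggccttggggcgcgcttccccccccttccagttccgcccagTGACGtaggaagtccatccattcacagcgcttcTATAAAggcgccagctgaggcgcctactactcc
Fosb: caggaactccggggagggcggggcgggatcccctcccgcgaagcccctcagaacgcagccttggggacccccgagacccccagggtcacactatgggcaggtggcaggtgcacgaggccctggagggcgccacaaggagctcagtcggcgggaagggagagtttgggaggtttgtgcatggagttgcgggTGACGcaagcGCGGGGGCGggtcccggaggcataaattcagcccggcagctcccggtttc
Atf3: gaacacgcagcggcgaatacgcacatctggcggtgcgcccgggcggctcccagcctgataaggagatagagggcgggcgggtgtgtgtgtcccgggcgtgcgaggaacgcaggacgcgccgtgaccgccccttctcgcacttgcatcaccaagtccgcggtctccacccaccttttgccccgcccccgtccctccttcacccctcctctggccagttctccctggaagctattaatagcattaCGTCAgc
Dusp1: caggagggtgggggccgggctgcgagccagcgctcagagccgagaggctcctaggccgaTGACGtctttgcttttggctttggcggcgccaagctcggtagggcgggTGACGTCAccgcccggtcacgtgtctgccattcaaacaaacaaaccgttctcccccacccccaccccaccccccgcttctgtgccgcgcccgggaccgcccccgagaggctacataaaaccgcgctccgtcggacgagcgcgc
A half-site was present in each of these 4 windows and in that of Junb, which makes 5 of the 8 members with a RefSeq window, against 17.8% of all 32851 windows. The full element was found in Dusp1 alone, 143 to 136 bases before the start, and in 1.55% of all windows. It contains a half-site on each strand. Fos held half-sites 129 to 125 and 66 to 62 bases before its start and a TATA box at 33 to 28, whereas TATA boxes were found in 12.4% of all windows. The Egr motif was matched in Fosb alone, 50 to 42 bases before the start, and in 2.57% of all windows. No member window matched the AP-1 motif TGANTCA, which was held by 6.75% of all windows, or the serum response element core (CArG box), held by 1.47%, and this says only that these letters are not in the window.

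After the quality filter (1000 to 6000 genes detected and under 5% mitochondrial UMIs), 17360 of 33268 cells remained, with 82186830 to 126866429 gene UMIs per library and a median of 24180 to 26893 UMIs per cell. A UMI, or unique molecular identifier, counts 1 captured mRNA molecule. Lineages were set by 2 genes, with basal cells at 500 CPM or more of Krt14, HR+ luminal cells at 300 CPM or more of Areg, and HR- luminal cells under 300 CPM of both, where CPM is counts per 1000000, the UMIs of a gene scaled to that many gene UMIs. This gave 14008 HR- luminal, 2217 basal and 569 HR+ luminal cells, while 109 cells that met both gates and 457 with Krt14 between the gates were set aside. Not every listed marker that the gates did not use followed the same division. Aldh1a3, listed for HR- luminal cells, was at 26.73 to 78.83 CPM in HR+ luminal and 17.97 to 31.48 in HR- luminal cells. Prom1, listed for HR+ luminal cells, overlapped, at 5.492 to 24.88 CPM there and 4.088 to 8.793 in HR- luminal cells. Krt5, Prlr and Elf5 did follow the division. Krt5 was at 1822 to 2861 CPM in basal cells and at 14.1 to 34.1 in HR- luminal cells, Prlr at 927 to 1310 in HR+ luminal and 85.3 to 92.5 in HR- luminal cells, and Elf5 at 95.4 to 125 in HR- luminal cells and under 15 in the others. Dcn, listed among the fibroblast markers, reached 702 to 1661 CPM in HR+ luminal cells, in which the other 5 markers of the list stayed under 1 CPM, and endothelial and immune markers summed to at most 2.13 CPM in any lineage. Of all barcodes, 129 occurred in more than 1 library.

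Fos was high in both luminal lineages and low in basal cells. Levels are given below in library order, which is wild type without and then with HU, followed by Brca2mut/WT without and then with HU. In HR- luminal cells Fos was at 1241, 979.7, 1078 and 937 CPM. Basal cells had 346, 547, 415 and 349.6 CPM in the same order, so that the highest basal library was below the lowest HR- luminal library. HR+ luminal cells had 839, 1093, 1017 and 892 CPM and overlapped the HR- luminal range. The share of all genes with separate ranges was not computed, here or below. Separate ranges are therefore not shown to be particular to the members. Here and below, a difference between lineages was tested with edgeR's quasi-likelihood test on the counts summed per library and lineage, with the library as a block, over 13251 genes. Fos was lower in basal than in HR- luminal cells by a log2 fold change of -1.51 ± 0.13 (SE, n = 4 libraries, edgeR adjusted p = 1.09e-06), and lower in basal than in HR+ luminal cells by -1.17 ± 0.13 (adjusted p = 1.52e-05). Between the luminal lineages it was lower in HR+ cells by -0.34 ± 0.12 (adjusted p = 0.031), a call that was lost under 5 of 8 alternative settings and without any of 3 libraries, for example with an adjusted p of 0.29 when counts were scaled by totals alone and of 0.13 without the wild-type control library.

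Fosb, which encodes a close relative of Fos, was higher in HR- luminal cells than in both other lineages. HR- luminal cells held 412, 294, 346 and 265 CPM, HR+ luminal cells 161, 169, 208 and 146, and basal cells 79.8, 106, 90.9 and 74.5. The ranges of the 3 lineages did not overlap. Relative to HR- luminal cells the log2 fold change was -2.04 ± 0.13 in basal (adjusted p = 1.04e-07) and -1.13 ± 0.13 in HR+ luminal cells (adjusted p = 1.12e-05). Thus Fosb was called lower in HR+ luminal cells by a wide margin, where the Fos difference was small and unstable.

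The Jun genes had a different order. Jun was highest in HR+ luminal cells, at 775, 812, 824 and 592 CPM, against 553, 439, 496 and 431 in HR- luminal and 291, 380.0, 352 and 269 in basal cells. No 2 of these ranges overlapped, and Jun was called higher in HR+ than in HR- luminal cells (log2 fold change 0.45 ± 0.10, adjusted p = 0.0015) and lower in basal cells (-0.71 ± 0.10, adjusted p = 5.15e-05). Jund, the Jun gene with the steadiest expression in most tissues, reached 634, 885, 876 and 1106 CPM in HR+ luminal cells, with 487, 437, 502 and 475 in HR- luminal and 223, 267, 228 and 215 in basal cells. Its log2 fold change was 0.68 ± 0.13 in HR+ luminal cells (adjusted p = 5.89e-04) and -1.16 ± 0.13 in basal cells (adjusted p = 9.34e-06), both against HR- luminal cells. Junb was the member that did not pass the test between basal and HR- luminal cells. It stood at 389.6, 392, 436 and 433 CPM in basal cells and at 432, 392, 381 and 345 in HR- luminal cells, overlapping ranges with a log2 fold change of -0.04 ± 0.09 (adjusted p = 0.70) that turned to 0.09 when totals alone set the scale. HR+ luminal cells had 652, 503, 697 and 634 CPM of Junb, above both others (0.49 ± 0.09 against HR- luminal cells, adjusted p = 7.44e-04).

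**Figure D1:**
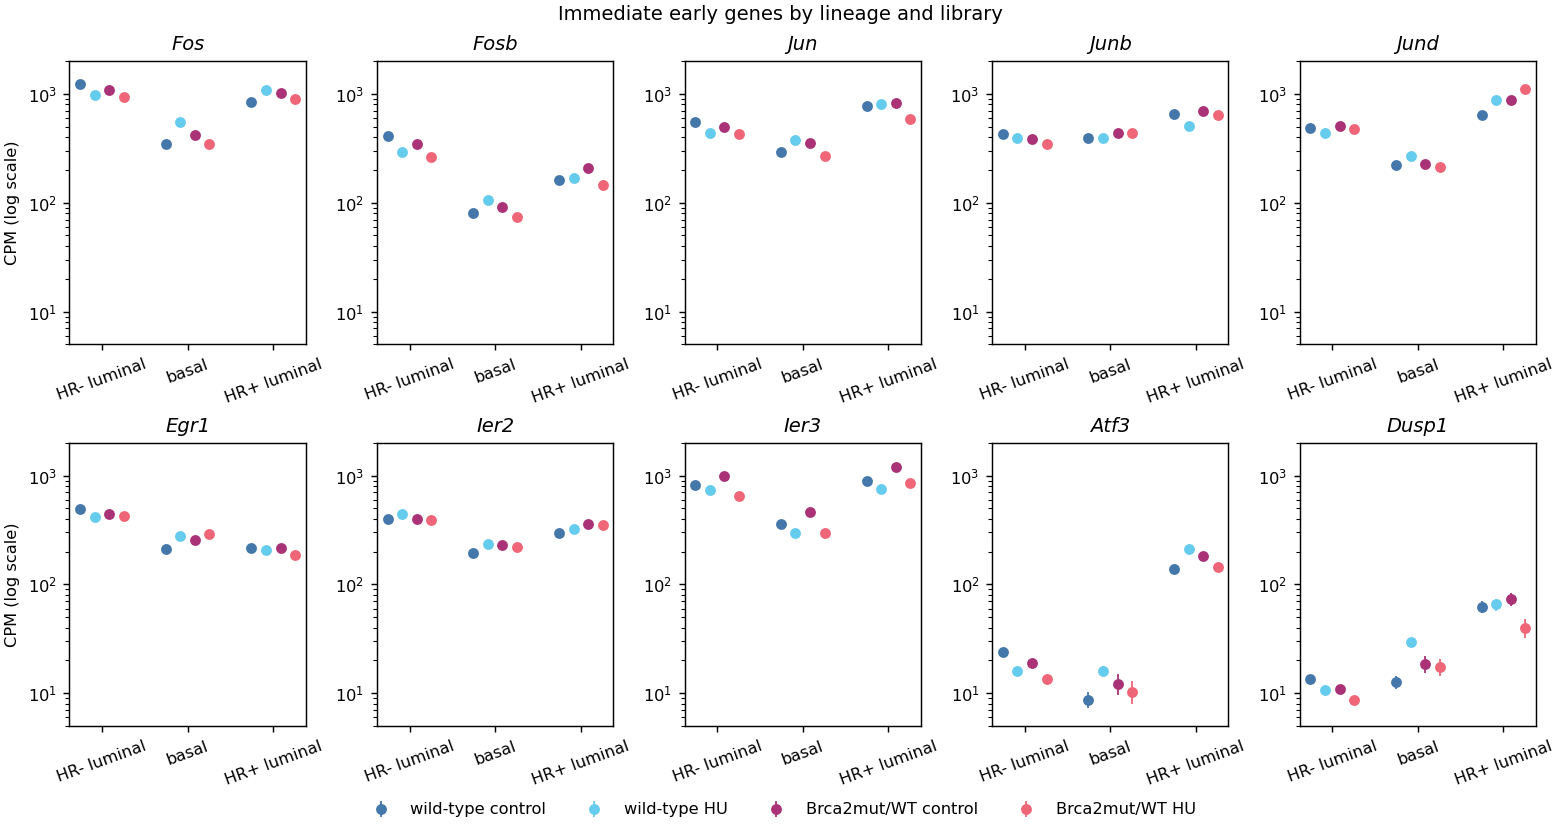
Levels of the 10 immediate early genes in CPM on a log axis, by lineage and library, with exact Poisson 95% intervals that cover counting error only and are mostly smaller than the points. The ranges of the 3 lineages do not overlap for Fosb, Jun, Jund and Ier2, and those of basal and HR- luminal cells overlap for Junb, Atf3 and Dusp1. The share of all genes with separate ranges was not computed.

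Egr1, a zinc finger factor induced through ERK and the serum response factor, was highest in HR- luminal cells, as Fosb was. It had 496, 416, 439 and 428 CPM there, 211, 275, 257 and 293 in basal cells and 216, 207, 217 and 185 in HR+ luminal cells. The fold changes against HR- luminal cells were -0.92 ± 0.11 in basal (adjusted p = 1.50e-05) and -1.29 ± 0.11 in HR+ luminal cells on the log2 scale (adjusted p = 1.18e-06). Its basal and HR+ luminal ranges overlapped, and the call of a higher basal level (0.38 ± 0.11, adjusted p = 0.012) did not hold with the relaxed cell filter (0.08, adjusted p = 0.41), with stricter gates (adjusted p = 0.072), or without the wild-type HU (adjusted p = 0.058) or the Brca2mut/WT HU library (adjusted p = 0.094).

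Ier2, a small nuclear protein, followed the same order as Fosb, with 402, 443, 398 and 393 CPM in HR- luminal cells, 295, 325, 355 and 353 in HR+ luminal cells and 193, 234, 228 and 220.4 in basal cells, without overlap. The log2 fold change against HR- luminal cells was -1.04 ± 0.07 in basal cells (adjusted p = 1.65e-07) and -0.49 ± 0.07 in HR+ luminal cells (adjusted p = 7.12e-05). Ier3, which dampens cell death and prolongs ERK signalling, was at 819, 739, 980.1 and 651 CPM in HR- luminal, 886, 744, 1194 and 846 in HR+ luminal and 359, 296, 467 and 298 in basal cells. Basal cells lay below both luminal lineages in every library (-1.31 ± 0.07 against HR- luminal cells, adjusted p = 2.15e-08). Between the luminal lineages Ier3 did not pass the test (0.01 ± 0.07, adjusted p = 0.91), although scaling by totals alone gave 0.20 with an adjusted p of 0.016.

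Atf3 and Dusp1 were the members with the highest folds in HR+ luminal cells. Atf3 encodes a stress-induced factor that often represses its targets, and it had 138, 209, 181 and 144 CPM in HR+ luminal cells, 24.2, 15.9, 19.2 and 13.6 in HR- luminal and 8.66, 15.9, 12.1 and 10.2 in basal cells. Every HR+ luminal library was above every other sum, with a log2 fold change of 3.01 ± 0.19 over HR- luminal cells (8.05-fold, adjusted p = 1.28e-07), whereas the basal and HR- luminal ranges overlapped despite a call of -0.78 ± 0.21 (adjusted p = 0.0059). Dusp1 encodes a phosphatase that switches off MAP kinases. It was at 62.1, 65.4, 72.9 and 39.5 CPM in HR+ luminal cells, 13.6, 10.8, 11.01 and 8.76 in HR- luminal and 12.6, 29.8, 18.5 and 17.3 in basal cells. It was 4.71-fold higher in HR+ than in HR- luminal cells (2.23 ± 0.21 on the log2 scale, adjusted p = 3.21e-06). In basal cells it was the member called higher than in HR- luminal cells (0.66 ± 0.21, adjusted p = 0.015), and this call was lost without the wild-type HU library (0.38, adjusted p = 0.15), which had the highest basal level, and without the Brca2mut/WT HU library (adjusted p = 0.056).

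Counted over the members, 8 of 10 were lower and 1 was higher in basal than in HR- luminal cells. These lineages differed in most genes, and 33.3% of all genes tested were called lower and 32.4% higher in the same comparison. In HR+ against HR- luminal cells 5 members were higher and 4 lower, beside 31.2% and 34.2% of all genes, and in basal against HR+ luminal cells 1 was higher and 9 lower, beside 27.3% and 26.7%. The median log2 fold change of the members was -0.98, 0.23 and -1.17 in these comparisons, and that of all genes tested was -0.01, -0.05 and 0.04. Scaling by totals alone moved all genes by 0.13, 0.19 and -0.05 on the log2 scale, and the calls over all genes then split into 5341 higher and 3501 lower in basal cells in place of 4293 and 4418, and into 5325 higher and 3409 lower in HR+ luminal cells in place of 4140 and 4529, both against HR- luminal cells.

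**Figure D2:**
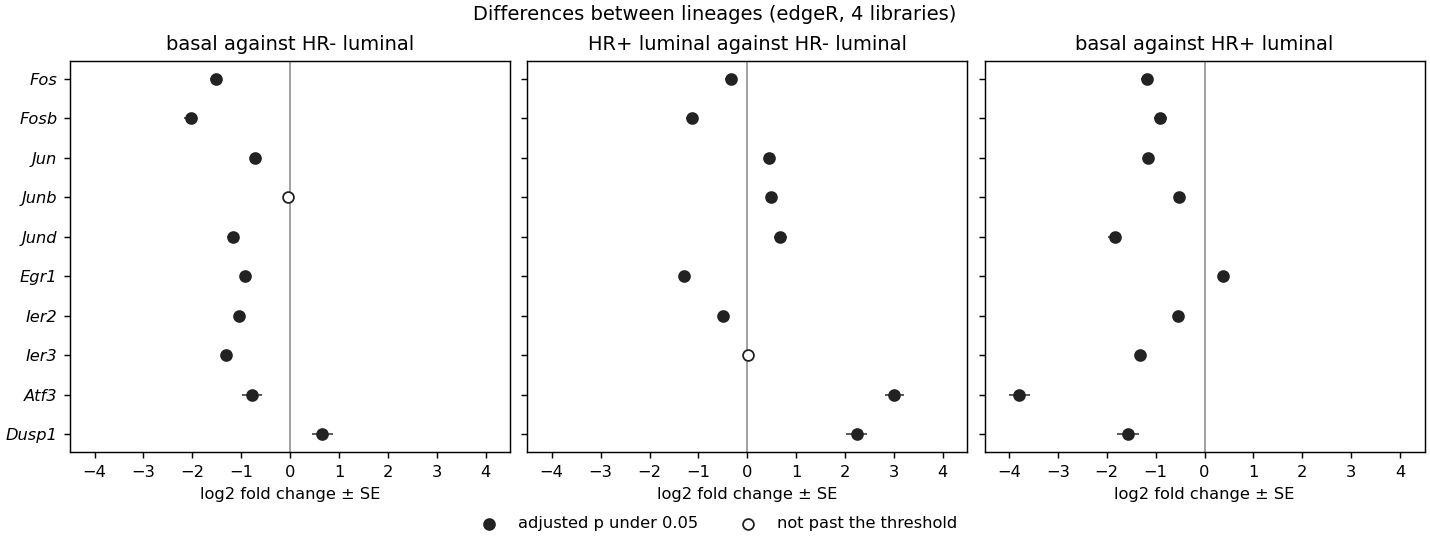
Log2 fold changes of the 10 genes between lineages with their standard errors, from the edgeR fit over 4 libraries, with filled points past an adjusted p of 0.05. Atf3 and Dusp1 sit at 3.01 and 2.23 in HR+ against HR- luminal cells while Fosb and Egr1 sit at -1.13 and -1.29, and the basal comparisons lie mostly to the left of 0.

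The tags were unevenly mixed over lineages, which bears on every comparison of lineages. Of the cells with 1 tag, tags 1 and 3 held 64.7% to 84.3% in HR- luminal, 27.1% to 71.4% in basal and 7.89% to 23.5% in HR+ luminal cells. Lineages were therefore also set side by side within each tag of each library. In the 14 pools with at least 20 basal and 20 HR- luminal cells, basal cells were lower for Fos, Fosb, Jund, Egr1, Ier2 and Ier3 in 14 of 14 pools and for Jun in 13, and higher for Dusp1 in 12. The median log2 ratio over these pools was -1.31 for Fos, -1.83 for Fosb and -0.59 for Egr1. Atf3 was lower in 11 of 14, and Junb was higher in 8 and lower in 6. The share of all genes that went 1 way in all pools was not computed for any pair of lineages. These counts are therefore not shown to be particular to the members. For HR+ against HR- luminal cells 6 pools had enough cells, all of them of tag 2 or 4. Atf3, Dusp1, Jun and Jund were higher and Fosb, Egr1 and Ier2 lower in 6 of 6, but Fos was higher in 3 and lower in 3. Ier3 turned within pools, where it was lower in 5 of 6 (median log2 ratio -0.46) and higher within whole libraries (0.20). Egr1 turned likewise in basal against HR+ luminal cells, with 2 pools higher and 4 lower (median -0.11, against 0.33 within libraries). The size of the Atf3 difference was smaller within pools, with a median log2 ratio of 1.74 against 3.24 within whole libraries. The 6 pools of basal against HR+ luminal cells were also of tag 2 or 4. Whole libraries also hold the cells of tags 1 and 3, in which HR- luminal Atf3 and Ier3 were lower in all 4 libraries. The part of this in the turns and in the smaller Atf3 difference was not tested.

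Cells at the edge of the Krt14 gates had intermediate levels of Fos and Fosb, but not of every member. Fos went from 1074 CPM in HR- luminal cells to 888 in the 457 cells with 300 to 500 CPM of Krt14, 686 in the 429 cells with 500 to 1000 CPM and 395 in the 1788 cells above. Fosb went from 336 through 212 and 148 to 81.5 CPM over the same steps. Junb, Atf3 and Dusp1 were higher at both edge steps than in HR- luminal cells and in the highest basal step. Junb was at 528 and 527 CPM there, against 392 and 384. The median depth was 12639 UMIs between the gates and 14939 in the lowest basal step, against 25335 in HR- luminal and 23087 in the highest basal step. Few Krt14 molecules therefore decide the gate at the edge steps, and the part of this in the levels there was not tested. The 109 cells that met both gates had 433 CPM of Fos and 68.5 of Atf3.

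Genes of the same pathways were counted from lists set up beside the members, and the counts are to be read beside the 32.4% of all genes called higher and 33.3% lower in basal, and 31.2% higher and 34.2% lower in HR+ luminal, both against HR- luminal cells. Among 29 tested of 30 other immediate early regulators, 11 were higher and 15 lower in basal than in HR- luminal cells, and the median log2 fold change was -0.42. Klf2, a zinc finger factor, was lower in basal cells (-2.95 ± 0.17, adjusted p = 4.99e-08), from 69.3 to 95.1 CPM in HR- luminal cells to 5.61 to 14.8. Gadd45g (2.43 ± 0.13, adjusted p = 4.38e-08), Socs3, an inhibitor of cytokine signalling (2.13 ± 0.16, adjusted p = 5.23e-07), and Ccn2, a matrix protein gene under YAP control (1.89 ± 0.16, adjusted p = 1.30e-06), went the other way. The AP-1 partners and inhibitors, with 7 tested of 8, had 1 higher and 3 lower. Fosl1, a Fos relative, was higher in basal than in HR- luminal cells (1.65 ± 0.32, adjusted p = 7.41e-04) and higher still in HR+ luminal cells (3.17 ± 0.33, adjusted p = 6.35e-06), at 15.4 to 26.2 CPM there and 0.855 to 2.77 in HR- luminal cells. Mafk and Jdp2 were called lower in basal cells by -0.68 and -0.41.

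The next list holds genes that ERK induces, some of which restrain it. Of 13 tested of 14, 8 were lower and 3 higher in basal cells, and 9 lower and 3 higher in HR+ luminal cells, with medians of -0.90 and -1.42 on the log2 scale. Of all genes 33.3% were lower and 32.4% higher in basal, and 34.2% lower and 31.2% higher in HR+ luminal cells. Phlda1 was at 488 to 730.4 CPM in HR- luminal cells, 156 to 241 in basal and 127 to 199 in HR+ luminal cells, and Etv5, an ETS factor induced by ERK, at 131 to 153, 46.3 to 50.9 and 18.4 to 32.7. Both were called lower in the other lineages, with Phlda1 at -1.62 ± 0.10 in basal cells (adjusted p = 8.52e-08) and Etv5 at -2.79 ± 0.10 in HR+ luminal cells (adjusted p = 2.54e-09). Dusp4 (-1.87 ± 0.09) and Spry4 (-3.03 ± 0.20) were likewise lower in basal cells. Dusp1, a phosphatase of the same family as Dusp4, had the opposite order over the luminal lineages.

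Heat shock genes can also be induced by cell handling. Of 12 heat shock genes, 9 were higher and 2 lower in basal and 11 higher and 1 lower in HR+ luminal cells, both against HR- luminal cells. Of all genes 32.4% were higher and 33.3% lower in basal, and 31.2% higher and 34.2% lower in HR+ luminal cells. The chaperones Hspb1 (1.95 ± 0.20, adjusted p = 4.99e-06), Dnajb1 (1.02 ± 0.08, adjusted p = 5.30e-07) and Hspe1 (0.93 ± 0.07, adjusted p = 2.68e-07) were higher in basal cells, and Hspa5, the chaperone of the endoplasmic reticulum, was lower (-0.76 ± 0.09, adjusted p = 2.28e-05). The NF-kB feedback genes gave 5 higher and 2 lower of 10 in basal cells and 6 higher and 2 lower in HR+ luminal cells, with Nfkbia, the main inhibitor of NF-kB, at 98.4 to 114.5 CPM in HR- luminal and 169.7 to 330 in HR+ luminal cells (1.05 ± 0.12, adjusted p = 1.76e-05). Nfkb2 and Relb were called higher in basal cells by 0.83 and 0.62, as was Nfkbie by 0.77, the last at no more than 4.91 CPM. Of 11 factors that act upstream of the members, 4 were higher and 4 lower in basal cells, near the 32.4% and 33.3% of all genes. Among them were Elk3 (1.68 ± 0.11) and Mrtfa (1.29 ± 0.12) above and Crem (-0.58 ± 0.11) and Atf4 (-0.56 ± 0.06) below.

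Treatment and genotype were first described library by library, with no test between single libraries. A member was counted as past 1.5-fold only where it reached 20 CPM, the expression floor, in at least 1 of the 2 libraries. Ratios are log2 values taken after adding 1 CPM to each level. Members with separate Poisson intervals are counted without the share of all genes, which was not computed. These intervals cover counting error only. In HR- luminal cells of wild-type organoids 9 of 10 members were lower in HU than in control cells and Ier2 was higher, all with separate Poisson intervals, while 43.3% of all genes at the floor were lower. The log2 ratios ran from -0.58 for Atf3 and -0.48 for Fosb to 0.14 for Ier2. None of the 9 members at the expression floor passed 1.5-fold, while 1.04% of all genes at that floor did. In Brca2mut/WT organoids all 10 were lower in HU, 9 of them with separate intervals, by a median log2 ratio of -0.20, where 45.7% of all genes were lower, and Ier3 alone of 8 members at the floor was past 1.5-fold (651 against 980.1 CPM, -0.59), where 0.987% of all genes were. Between genotypes 8 of 10 were lower in Brca2mut/WT than in wild-type HR- luminal cells without HU and 8 of 10 with HU, 7 of the 8 with separate intervals in each case, where 28% and 36.4% of all genes were lower, and none was past 1.5-fold, beside 0.813% and 0.87% of all genes. The libraries are shared between these comparisons, so their directions are not independent.

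In wild-type basal cells 9 of 10 members were higher in HU than in control, as were 56.3% of all genes at the floor, with Fos at 547 against 346 CPM (log2 ratio 0.66) and Dusp1 at 29.8 against 12.6 (1.18) past 1.5-fold, among 5.61% of all genes past it. In Brca2mut/WT basal cells 9 of 10 were lower in HU, where 42.7% of all genes were, but 4 of the 9 alone had separate intervals (Fos, Fosb, Jun and Ier3), and Ier3 was past 1.5-fold at 298 against 467 CPM (-0.65), as were 2.93% of all genes. The log2 ratios of the Brca2mut/WT to the wild-type control ran from 0.03 to 0.51, with separate intervals for 7 of 10 and not for Fosb, Jund and Atf3. All genes were split into 50.9% higher and 49.1% lower, and none of the members was past 1.5-fold, when 2.99% of all genes were. With HU 7 of 10 were lower in Brca2mut/WT basal cells, 6 with separate intervals, where 50% of all genes were lower, and Fos (-0.64) and Dusp1 (-0.75) were past 1.5-fold, where 6.38% of all genes were. In HR+ luminal cells, with 123 to 176 cells a library, the log2 ratios ran from -0.37 to 0.60 for wild-type HU against control (Atf3) and from -0.87 (Dusp1) to 0.34 for Brca2mut/WT HU against control.

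**Figure D3:**
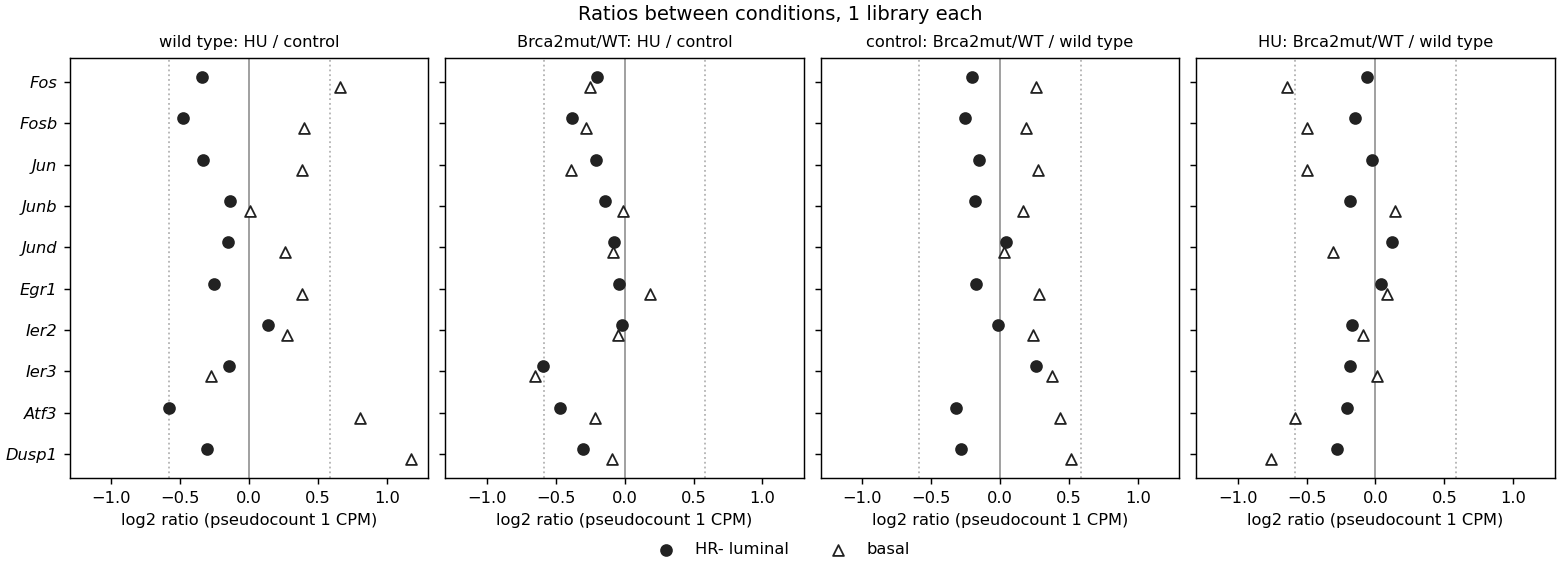
Log2 ratios between libraries for the 10 genes in HR- luminal (filled circles) and basal cells (open triangles), with dotted lines at 1.5-fold. HR- luminal ratios for HU against control lie between -0.59 and 0.14, and the wild-type basal ratios for Fos and Dusp1 lie at 0.66 and 1.18. Basal Atf3, at 0.81 in the same panel, was under the floor of 20 CPM in both libraries and was not counted.

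The 4 libraries were also fitted together within each lineage, with treatment and genotype as additive effects in edgeR's quasi-likelihood test, 2 libraries on each side and 1 residual degree of freedom. This fit was added after seeing the data, and it takes the effect of HU to be the same in both genotypes. In HR- luminal cells 3 of 10 members were called lower in HU, beside 5.3% of all genes called in either direction. These were Atf3 (log2 fold change -0.56, adjusted p = 0.00104), Fosb (-0.44, adjusted p = 0.0105) and Dusp1 (-0.33, adjusted p = 0.0287). Fos, at -0.27, had an adjusted p of 0.124. Atf3 (-0.32, adjusted p = 0.031) and Dusp1 (-0.35, adjusted p = 0.0382) were called lower in Brca2mut/WT than in wild-type cells, beside 2.16% of all genes. None of these 5 calls held with the relaxed cell filter, which has no upper limit on genes and allows up to 10% mitochondrial UMIs, where Atf3 was at -0.31 with an adjusted p of 0.288 for HU. With that filter 0.0116% of all genes were called for HU and 0.0987% for genotype.

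No member was called by the same edgeR fit in basal or HR+ luminal cells. In basal cells 1.37% of all genes were called for HU and 1.18% for genotype. There 3 and 0 members had an unadjusted p under 0.05, as did 1882 and 1887 of all 12878 genes. The lowest adjusted p of a member for HU was that of Ier3, at -0.48 (adjusted p = 0.0893). In HR+ luminal cells 0.102% and 0.0% were called, and 2 members and 1 member had an unadjusted p under 0.05, as did 992 and 701 of all 10772 genes. Of the HR- luminal cells with 1 tag, tags 1 and 3 held 84.3%, 73.5%, 64.7% and 77.8% in library order, and the part of this in the called differences was not tested.

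Within tags, most of the differences between single libraries went both ways. When wild-type HU and control HR- luminal cells were set side by side within each of the 4 tags, Fos, Jun, Atf3 and Dusp1 were lower in HU in 4 of 4 tags, and the other 6 members went both ways. In Brca2mut/WT cells Fosb alone was lower in 4 of 4. Between genotypes, Atf3 and Dusp1, the members called by the additive fit, were lower in Brca2mut/WT HR- luminal cells in 4 of 4 tags without HU. Fosb and Jun were also lower, and Ier3 was higher, in 4 of 4 tags there. With HU Atf3 and Dusp1 were each lower in 2 tags and higher in 2, while Fosb was lower and Jund higher in 4 of 4. The log2 ratios then ran from -0.56 to 0.77 for Atf3 and from -0.49 to 0.23 for Dusp1. Whether the same tag marks the same mouse or passage in 2 libraries is not known. In wild-type basal cells none of the 10 members moved in 1 direction in all 4 tags, and the log2 ratio of Fos ran from -0.82 to 1.40. The other basal comparisons had 3 tags with enough cells. Fos, Jun, Dusp1 and Atf3, the last under the floor of 20 CPM, were lower in Brca2mut/WT than in wild-type HU in 3 of 3. Ier3 was lower in Brca2mut/WT HU than in its control in 3 of 3. Dusp1, under the floor, was higher in the Brca2mut/WT than in the wild-type control in 3 of 3. The share of all genes that moved 1 way in all tags was not computed for either lineage. These counts are therefore not shown to be particular to the members. The wild-type basal control cells themselves were split by tag, with Fos at 792 and 625 CPM in tags 1 and 3 and at 238 and 178 in tags 2 and 4, and 320 of the 585 basal cells with 1 tag carried tag 4. In wild-type HU the basal cells were mostly of tag 2, with 371 of 723 and 630.7 CPM of Fos.

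Among HR- luminal cells the members differed between tags as well as between libraries. The highest tag exceeded the lowest by 1.46 ± 0.03 times in a library (mean ± SD of 4 libraries of the median over members), and the highest library exceeded the lowest by 1.37 ± 0.07 times within a tag (n = 4 tags). Fos ranged from 796 to 1399 CPM over the 16 pools and was highest in tag 1 in 3 of 4 libraries. Egr1 ranged from 317 to 551 CPM and was higher in both of tags 1 and 3 than in tags 2 and 4 in 3 libraries. Ier3 went the opposite way, from 542 to 1366 CPM, with tags 2 and 4 above tags 1 and 3 in all 4 libraries. In the wild-type HU library it was at 574 and 542 CPM in tags 1 and 3 and at 1205 and 1122 in tags 2 and 4. Atf3 showed the same split in all 4 libraries and the widest relative range, from 7.23 CPM in tag 3 of Brca2mut/WT HU to 67.4 in tag 2 of the wild-type control, which held 204 cells. The share of all genes with such a split between tags was not computed, so it is not shown to be particular to these members. In the smallest pool, tag 4 of Brca2mut/WT HU with 130 cells, Ier3 (1366 CPM), Junb (565) and Ier2 (589.9) were each at their highest.

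**Figure D4:**
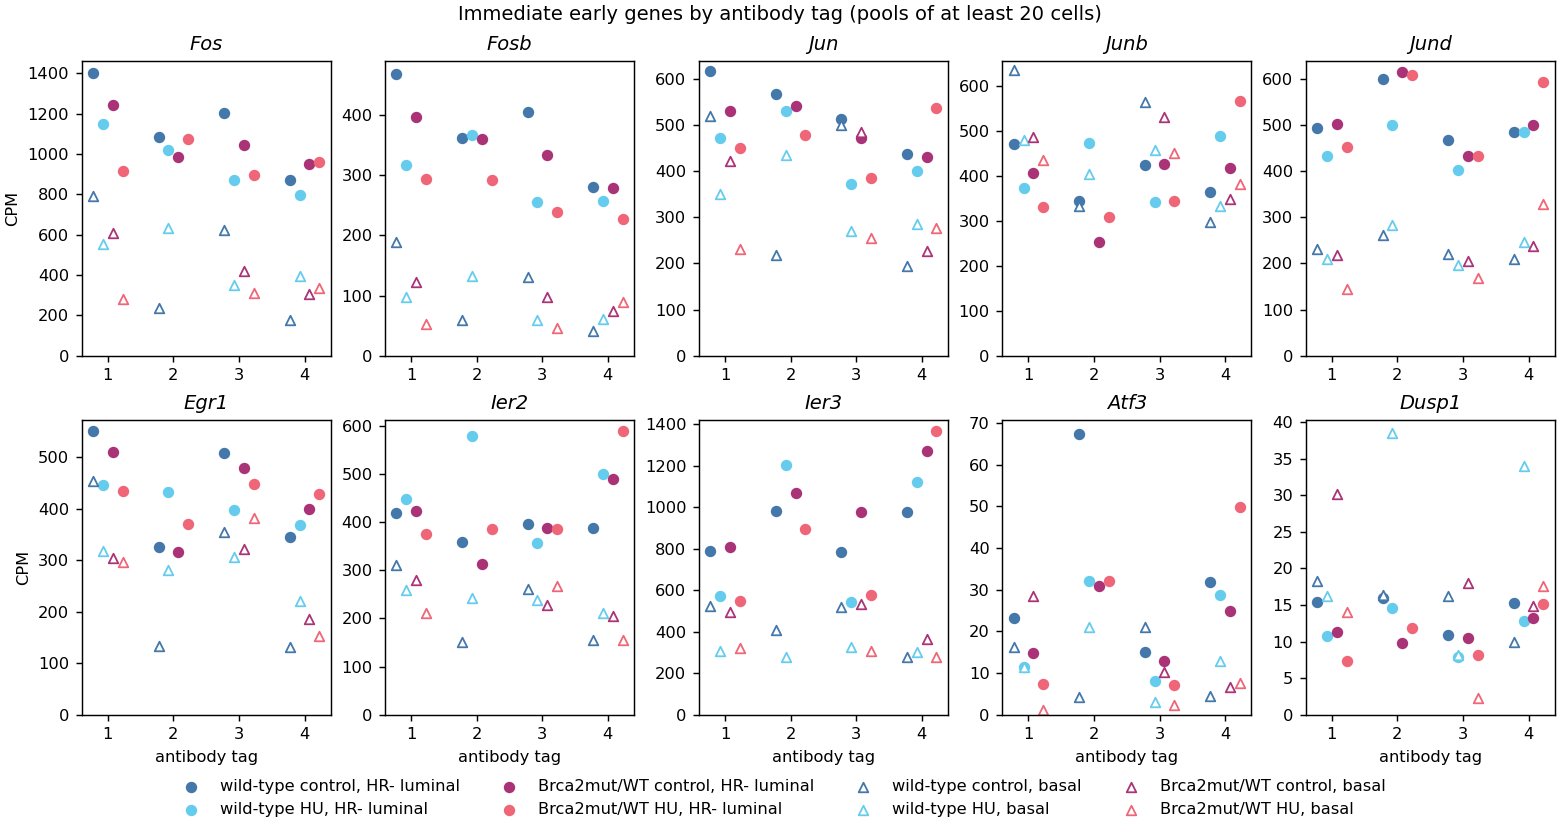
CPM of the 10 genes by antibody tag in HR- luminal (filled circles) and basal cells (open triangles), coloured by library, for pools of at least 20 cells. In HR- luminal cells Ier3 and Atf3 are higher in tags 2 and 4 than in tags 1 and 3 in all 4 libraries, while basal Fos in the wild-type control is at 792 and 625 CPM in tags 1 and 3 and at 238 and 178 in tags 2 and 4.

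Over the 16 HR- luminal pools the members fell into more than 1 pattern. The Pearson correlation of log2 levels was 0.83 between Fos and Fosb, 0.77 between Fos and Jun, 0.85 between Junb and Ier2, 0.84 between Jund and Atf3 and 0.82 between Ier3 and Atf3, but -0.10 between Fos and Ier3 and -0.50 between Egr1 and Atf3. Pools of 1 library share depth and handling, so these are descriptions. The genes outside the list that followed the mean of the members most closely over these pools, of 5387 genes at 20 CPM or more, were Mpp7 (r = 0.89), Ptprk (0.84), Hbegf (0.80), Ncoa7 (0.80), Emp1 (0.79), Ets2 (0.78), Ndel1 (0.77), Rock2 (0.76), Zfand5 (0.75) and Ddit4 (0.74). Hbegf encodes an EGF receptor ligand and Ptprk a receptor phosphatase. Atf3 (0.86) and Ier3 (0.81) were the members closest to that mean, which contains them. Jun was at 0.75, but Fos was at 0.40, Fosb at 0.39 and Egr1 at -0.002. The mean was not scaled by gene, so members with a wider range over the pools weigh more in it, and Atf3 had the widest. A high correlation with it therefore does not mean that a gene followed each member.

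Within HR- luminal cells the members varied together from cell to cell, more so for Fos and its partners. Each cell was thinned to 5000 UMIs, which left 2552 to 4085 cells per library and left out 122 to 288 shallower ones. Fos had a mean of 4.77 to 6.51 UMIs per thinned cell and a variance of 4.34 to 4.95 times the mean, where random counting gives 1. The same ratio was 3.74 to 4.81 for Ier3, 2.86 to 3.11 for Jun and 1.73 to 2.01 for Ier2. Fos and Fosb correlated with a Pearson r of 0.40 to 0.43 over cells in the 4 libraries, Fos and Egr1 with 0.29 to 0.36, and Fos and Jun with 0.29 to 0.33. Ier3, Atf3 and Dusp1 were the members least correlated with the others. Ier3 had 0.03 to 0.05 against Fos and 0.08 to 0.23 against Ier2, Dusp1 had 0.02 to 0.06 against Egr1, and Atf3 had 0.03 to 0.06 against Ier2. Against Fos, Atf3 had 0.09 to 0.17 and Dusp1 0.09 to 0.12. Atf3 and Dusp1 were at only 13.6 to 24.2 and 8.76 to 13.6 CPM in HR- luminal cells. Counting noise at such levels lowers a correlation, and its part was not tested. Among 5011 genes with at least 0.1 UMI per thinned cell, the 4 with the highest mean correlation with Fos were Fosb, Egr1, Jun and Jund. Klf6 (0.27 to 0.29), Zfp36, which promotes decay of unstable mRNAs (0.19 to 0.23), and Btg2, an antiproliferative gene (0.19 to 0.23), were the next from the lists and were chosen after their values were seen. Ier3 ranked 357th.

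**Figure D5:**
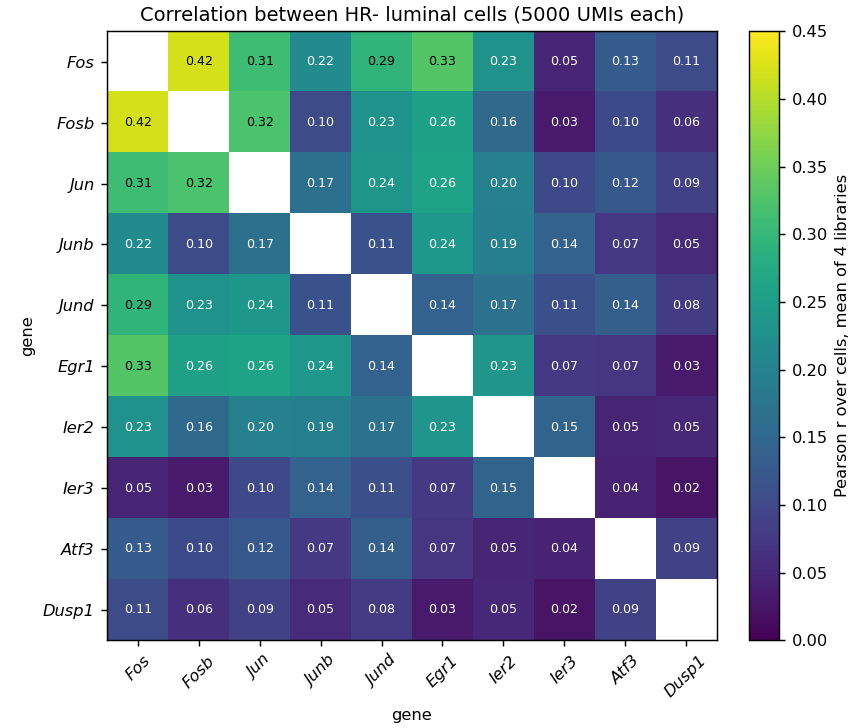
Pearson correlation of log2 (UMIs + 1) between the 10 genes over HR- luminal cells thinned to 5000 UMIs, as the mean of 4 libraries. Fos, Fosb, Jun and Egr1 form the brightest block, with Fos and Fosb between 0.40 and 0.43 in each library, and the Ier3, Atf3 and Dusp1 rows are dark.

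Atf3 and Dusp1 were concentrated in few HR- luminal cells. The top 1% of thinned cells held 28.5% to 40.8% of all Atf3 UMIs and 31.5% to 37.7% of Dusp1 UMIs, against 4.82% to 5.48% of Fos UMIs, although with means under 0.13 UMI per cell counting alone gives an uneven share. Cells with 3 or more Atf3 UMIs numbered 31, 16, 20 and 11 in library order, and this cut was chosen after seeing the data. Their Fos level was 2062, 2453, 2418 and 1848 CPM, against 1178, 947, 1035 and 909 in cells without an Atf3 UMI, and their Jun level was 1070, 1840, 1111 and 922 against 525, 420.5, 480.0 and 422. HR- luminal markers summed to 9611 to 16580 CPM in these cells and to 23330 to 27530 in cells without Atf3, and Foxa1, a defining HR+ marker, was at 13.9 to 28.1 CPM and 2.88 to 4.63. The HR+ markers other than Areg summed to 229, 206, 104 and 377 CPM in library order, against 105, 99.25, 106 and 105. The Brca2mut/WT control was thus not higher by this sum. Levels in cells with 3 or more Atf3 UMIs rest on 11 to 31 cells a library. Foxa1 in the HR+ luminal gate was at 111 to 131.5 CPM. The part of misplaced HR+ luminal cells in these levels was not tested.

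Member levels also moved with the quality of the cells. From HR- luminal cells with under 1% to those with 4% to 5% mitochondrial UMIs, Fos went, in library order, from 1513 to 1068 CPM, 1026 to 910.0, 1317 to 1009 and 925 to 850.2. Junb was lower at the higher share in 3 libraries, and in wild-type HU it was at 360.1 and 378 CPM. Atf3 went from 54.8 to 22.5, 45.6 to 9.76, 22.7 to 14.7 and 61.7 to 8.47 CPM. Fosb went the other way in each library, for example from 162 to 325 CPM in wild-type HU. Ier3 went from 387 to 809.5 CPM in wild-type HU and from 394 to 653 in Brca2mut/WT HU, but from 806 to 776 and from 943 to 967 in the wild-type and Brca2mut/WT controls. Cells with under 1% were also shallower, with medians of 13590, 5494.5, 5479 and 5416 UMIs. Those with 4% to 5% had 26752, 27171, 27785 and 30475. At 1% to 2% Fos was at 1547, 1235, 1287 and 1129 CPM, so it did not fall at each step in every library. The part of depth was not tested. Median mitochondrial shares of HR- luminal cells were 3.12% to 3.38% and those of basal cells 2.13% to 2.90%, and the part of this in the differences between lineages was not tested.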

How the data were processed

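The authors aligned reads to mm10 (GRCm38) and counted UMIs per gene and cell with Cell Ranger, version 6.0.2 per the labels and 6.1.1 per the file headers. The deposited values are raw counts of 32285 genes and 4 antibody tags. The reference version was not settled. Tags were left out of gene totals. Members and lists were chosen with earlier results of these data known.

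The filter stated by the study was applied, keeping cells in which 1000 to 6000 genes were detected and mitochondrial UMIs stayed under 5%. The paper reports more cells after this filter than the 33268 barcodes of the 4 libraries, of which 17360 were kept here. The cells kept here are therefore not the same set as the study's. No doublet caller was run, and cells with 1 tag (at least 70% of 100 or more tag UMIs) were an alternative. Counts were summed per library and lineage and tested with edgeR 4.0.16 in R 4.3.3 (TMM scaling, filterByExpr, library block, Benjamini-Hochberg, threshold 0.05), tested on simulated data. The 4 libraries differ in genotype and treatment, and whether their cells come from separate cultures is not stated for each tag. With the library as a block, p-values between lineages set a difference against how much it varies over these 4 libraries. In the additive fit a gene has 1 residual degree of freedom, which holds any difference in the effect of HU between genotypes. Its p-values therefore lean on the spread that edgeR shares across genes. DESeq2 1.42.0, other scaling, filters, gates and leaving out each library were alternatives. Single libraries were compared without a test, an additive edgeR fit of treatment and genotype over the 4 libraries was added after seeing the data, and Poisson 95% intervals cover counting error only. Named genes were all 10 members, up to 4 called genes per list with the largest fold in basal against HR- luminal cells, and the 10 genes most like the mean of the members over HR- luminal tag pools. Some genes that these rules name are not reported here. Sequences were taken from RefSeq tables of GRCm38.p6, in which 8 of 10 members had a window, and gene positions from GENCODE M21. Tables and figures were made with Python 3.11.15 and matplotlib 3.10.9.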

Additional observations from a re-analysis of the deposited data

Results flagged for a closer look

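Several members moved in opposite directions in 2 groups of cells under the same contrast, with Poisson intervals that were separate in both, and with 1 library per condition these differences were not tested. The share of all genes that did the same was not computed, so this is not shown to be particular to the members. Intervals were separate even for small log2 ratios, such as -0.04 for Egr1 in HR- luminal cells (Brca2mut/WT HU against control). Between genotypes, HU went with a higher level in wild-type and a lower level in Brca2mut/WT basal cells for Fos (difference of log2 ratios 0.91), Fosb (0.68) and Jun (0.77). Between lineages, the ratio of wild-type HU to control was above 1 in basal and below 1 in HR- luminal cells for Fos (difference 0.999), Fosb (0.88), Jun (0.72), Jund (0.41), Egr1 (0.64), Atf3 (1.38) and Dusp1 (1.49). Of these, Atf3 in basal cells (8.66 and 15.9 CPM) and Dusp1 in HR- luminal cells (13.6 and 10.8 CPM) were under the floor of 20 CPM in both libraries. The ratio of the Brca2mut/WT to the wild-type control was split in the same way for Fos (0.47), Jun (0.43), Junb (0.34), Egr1 (0.46) and Dusp1 (0.80). Here Dusp1 was under the floor in both libraries and both lineages. With HU, the ratio of Brca2mut/WT to wild type was higher in basal than in HR- luminal cells for Junb (0.33) and lower for Jund (-0.43), and Egr1 differed by 0.22 for Brca2mut/WT HU against control. These differences share libraries. Every difference that involves the wild-type control rests on the same basal cells, of which 320 of the 585 with 1 tag carried tag 4, and Fos in those cells ran from 178 to 792 CPM over the tags. The part of the tag mix in these differences was not tested.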

How the results depend on the processing

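Of 360 member differences between lineages recomputed under alternatives, 338 kept their direction and their side of the threshold, 14 fell below it, 1 passed it and 7 reversed. Both were kept by 8 of 10 members in basal and in HR+ against HR- luminal cells, and 9 of 10 in basal against HR+ luminal cells, under every alternative run. The reversed values were all of members that did not pass the test. Junb in basal against HR- luminal cells turned to 0.0909 with totals alone and ran from -0.1197 to 0.0382 when each library was left out, with the highest value without the wild-type control. Ier3 in HR+ against HR- luminal cells turned to -0.0553 without a filter on low counts, -0.0053 with the relaxed cell filter (no upper limit on genes, under 10% mitochondrial UMIs), -0.0011 in cells with 1 tag, and ran from -0.0317 to 0.081 when each library was left out, below 0 without the Brca2mut/WT HU or the Brca2mut/WT control library. No count of genes or members called between lineages moved by over 1.5 times. Between conditions, the number of members past 1.5-fold in HR- luminal cells became 1 (Atf3) for wild-type HU against control in cells of at least 10000 UMIs, an alternative chosen after seeing the data, and 0 for Brca2mut/WT HU against control with the relaxed filter and with stricter gates. In basal cells it became 0 for Brca2mut/WT HU against control in cells with 1 tag, and 4 for Brca2mut/WT against wild-type HU with the relaxed filter. The causes were not tested. Tags assigned at 90% of tag UMIs gave a ratio of highest to lowest tag of 1.47 in place of 1.46. In the additive fit, the number of members called in HR- luminal cells became 0 for HU and 0 for genotype with the relaxed filter, in place of 3 and 2. Of all genes 0.0116% and 0.0987% were then called, in place of 5.3% and 2.16%. In cells with 1 tag the number of members called for HU became 5, where 9.52% of all genes were called. Dusp1 for HU was not called with stricter gates (-0.25, adjusted p = 0.0749). Treatment and genotype groups could not be paired by animal or replicate. The library labels mention replicates, but no key assigns the cells of a library to them. Sums of HR+ luminal cells rest on 123 to 176 cells a library, which limits the lower members there.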

Other observations

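Barcodes outside the filter differed in the members too. Of the wild-type control barcodes that met the HR- luminal gate, kept cells had 4880 CPM summed over the 10 members, those with over 6000 genes and under 5% mitochondrial UMIs had 4306, and those with under 1000 genes had 3667. Barcodes of that gate with 1000 to 6000 genes and 5% or more mitochondrial UMIs had 4519 CPM in wild-type HU and 4418 in Brca2mut/WT HU, against 4166 and 3946 in kept cells, and 4493 and 4639 in the wild-type and Brca2mut/WT controls, against 4880 and 4651. Summed over the members, basal cells were at 2114 to 2542 CPM in the 4 libraries, HR- luminal cells at 3946 to 4880 and HR+ luminal cells at 4656 to 5643.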
